A study of Mus musculus with 8 samples.

Results

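The RNAs made from mitochondrial DNA and 17 nuclear genes that replicate, transcribe and process it were followed in mouse muscle with and without the acyl-CoA thioesterase Acot2. They were picked by symbol, not by their values. The 13 mRNAs (mt-Nd1 to mt-Atp8) were found through the alias column of the deposited table, where their main name is upper case, and the 2 ribosomal RNAs and the nuclear genes through their name. All 32 were found among 54091 rows, and 31 passed the filter on low values, a mean normalized count of at least 10. The exception was Slirp.

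The tissue was white quadriceps, a pale thigh muscle region made mainly of fast glycolytic fibres. It was taken in the morning from male mice of 11 to 14 weeks that had been given a diet with 60% fat for 7 days. The 4 control libraries (replicates 1 to 4) are labelled Loxp/Loxp, and the 4 knockout libraries (replicates 5 to 8) are labelled CKM Cre with Acot2 knocked out in muscle. The Ckm promoter drives Cre in striated muscle, the heart included, and not in the vessel, immune and connective tissue cells that whole muscle also holds. Since the controls had no Cre, the effects of Cre and of losing Acot2 cannot be told apart. The sources used here give neither the strain nor whether each library came from a separate animal. The p-values therefore measure only how these libraries vary, which may be technical. The depth was 55284004 to 109101263 reads per library. Normalized counts, the unit of all levels below unless said otherwise, are reads divided by a size factor per library, with no division by gene length. Control replicates 3 and 4 stood apart from 1 and 2 over all genes: the chi-square per gene between libraries was 85.7 for the former pair, 35.4 for the latter and 194 to 265 across. Knockout replicates 6 and 8 likewise stood apart from 5 and 7, at 53.7 for the former pair, 64.3 for the latter and 96.9 to 226 across. Knockout replicate 8 held heart transcripts, given below. Normalized counts are listed in the order of replicates 1 to 4 for the controls and 5 to 8 for the knockouts.

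Mitochondrial DNA is a small circle that is copied by the polymerase Polg with its accessory subunit Polg2 and the single-strand binding protein Ssbp1. Both strands are transcribed into long RNAs by the RNA polymerase Polrmt with Tfam and Tfb2m, and Tefm keeps it elongating. The tRNAs between the genes are cut out of these RNAs, which frees the mRNAs and ribosomal RNAs, and the products are then tailed, bound, translated or degraded. The mRNAs encode core subunits of complexes I, III and IV of the respiratory chain and of the ATP synthase, complex V, whose other subunits come from nuclear genes.

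Acot2 itself was measured at 2179, 3348, 4165 and 2166 in the controls and at 325, 273, 256 and 354 in the knockouts. The knockout level was 10.6% of the control level (limma, adjusted p = 4.72e-06). It was the 1 gene called among 15657 tested at an adjusted p under 0.05, so that 0.00639% of genes were called. At an adjusted p under 0.1 by limma the number was 1876, so the count depends strongly on the threshold. White muscle markers were present in all 8 libraries. The summed level of 8 fast glycolytic fibre markers was 8621610 to 10528100 in controls and 9881480 to 10971600 in knockouts. The sum hides a split, with 4 estimates lower and 4 higher in the knockouts. At an unadjusted limma p under 0.05, 2 were lower and 3 higher, against 13.3% and 13.6% of all genes. Myh4, the highest, differed by -0.23 on the log2 scale and Pvalb by 0.81, and 0 of the 8 were called.

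The genes of mitochondrial DNA lie end to end and some overlap, which bears on what their counts mean. Positions are on the GRCm38 build in the GENCODE annotation. The 13 mRNA genes lie on the plus strand except mt-Nd6, which is on the minus strand. The end of mt-Atp8 and the start of mt-Atp6 share 43 bases, which are 21.1% of the length of mt-Atp8, and mt-Nd4l and mt-Nd4 share 7. These 2 junctions are shown at chrM:7917-7979 and chrM:10147-10193, from 5′ to 3′ on the plus strand, with the shared bases in capitals, because a read that lies there belongs to both genes.
mt-Atp8/mt-Atp6: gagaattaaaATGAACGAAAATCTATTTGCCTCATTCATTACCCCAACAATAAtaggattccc
mt-Nd4l/mt-Nd4: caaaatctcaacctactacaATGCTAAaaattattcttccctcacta
The ends of mt-Nd5 and mt-Nd6 share 14 bases on opposite strands.

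A stretch of mitochondrial DNA also stands in the nuclear genome, on the minus strand of chromosome 1, where the annotation names 7 pseudogenes between 24611535 and 24616197. They cover the end of mt-Co1, nearly all of mt-Co2, mt-Atp6, mt-Co3, mt-Nd3 and mt-Nd4l, and the first part of mt-Nd4. Over the aligned bases 5 copies had no mismatch, and the copies of mt-Co1 (Gm29216, 483 bases) and mt-Nd3 (Gm28438, 345 bases) had 1 each. Gm29216 is 492 bases long, and its bases outside the aligned stretch were not counted. The windows around both mismatches are shown in the sense of the gene, because they are the mismatches found within the aligned stretches. The base that differs is in capitals: A1066T in mt-Co1 and T3C in mt-Nd3, with the gene's base first, the position counted from 1 at the gene's start, and the copy's base last. The mitochondrial windows are chrM:6390-6423 and chrM:9459-9491, and those of the copies chr1:24616155-24616188 and chr1:24613087-24613119.
mt-Co1 window: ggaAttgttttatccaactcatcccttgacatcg
Gm29216 window: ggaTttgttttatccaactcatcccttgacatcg
mt-Nd3 window: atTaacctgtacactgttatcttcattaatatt
Gm28438 window: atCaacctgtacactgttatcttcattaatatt

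The 5 genes that the copies cover nearly whole had low levels per length, and so had mt-Atp8. Per kilobase of exon, mt-Co1 had a control level of 1420770 ± 394849 normalized counts (SD, n = 4), mt-Nd1 1024200 ± 147619, mt-Cytb 863253 ± 155822, mt-Nd2 643732 ± 170107 and mt-Nd6 392924 ± 18822. Next came mt-Nd4 at 376824 ± 93838 and mt-Nd5 at 240670 ± 111854. The ribosomal RNAs mt-Rnr2 and mt-Rnr1 followed at 198787 ± 24307 and 150435 ± 18677. For neighbours in this order the ranges of mean ± SD overlapped, except for mt-Nd2 and mt-Nd6 and for mt-Rnr2 and mt-Rnr1, which lay slightly apart. Far below them on the same scale per kilobase stood mt-Atp6 at 17504 ± 4040.3, mt-Co2 at 17210.4 ± 1360.2, mt-Co3 at 15600.4 ± 2657, mt-Nd3 at 4284 ± 140.3, mt-Nd4l at 3956 ± 2589 and mt-Atp8 at 1227 ± 590. Among these the ranges overlapped for all neighbours but mt-Co3 and mt-Nd3. Of the 50-base windows of mt-Co2, mt-Co3, mt-Atp6, mt-Nd4l and mt-Nd3, 98.0% to 100% were also present in another annotated gene. That share was 62.2% for mt-Nd4, 51.1% for mt-Co1, 8.19% for mt-Nd2, 7.61% for mt-Nd5 and 1.04% for mt-Rnr2. It was 0% for mt-Nd1, mt-Nd6, mt-Cytb, mt-Rnr1 and mt-Atp8. The chromosome 1 copy Gm29216 held only 28.7% of the windows of mt-Co1, so other annotated genes hold the rest of its shared windows. The sources used here do not say how reads that fit several places or genes were counted, and the part of this setting in the low levels was not tested. For mt-Atp8, which lies between mt-Co2 and mt-Atp6, no copy is annotated, and the genome between the pseudogenes was not used here. The 43 bases that mt-Atp8 shares with mt-Atp6 are shorter than a 50-base window, so its 0% does not count them. The copies of its neighbours, Gm10925 and Gm28661, end at 24614651 and start at 24614885 on chromosome 1. Whether the bases between these 2 positions hold a copy of mt-Atp8 was not examined.

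**Figure D1:**
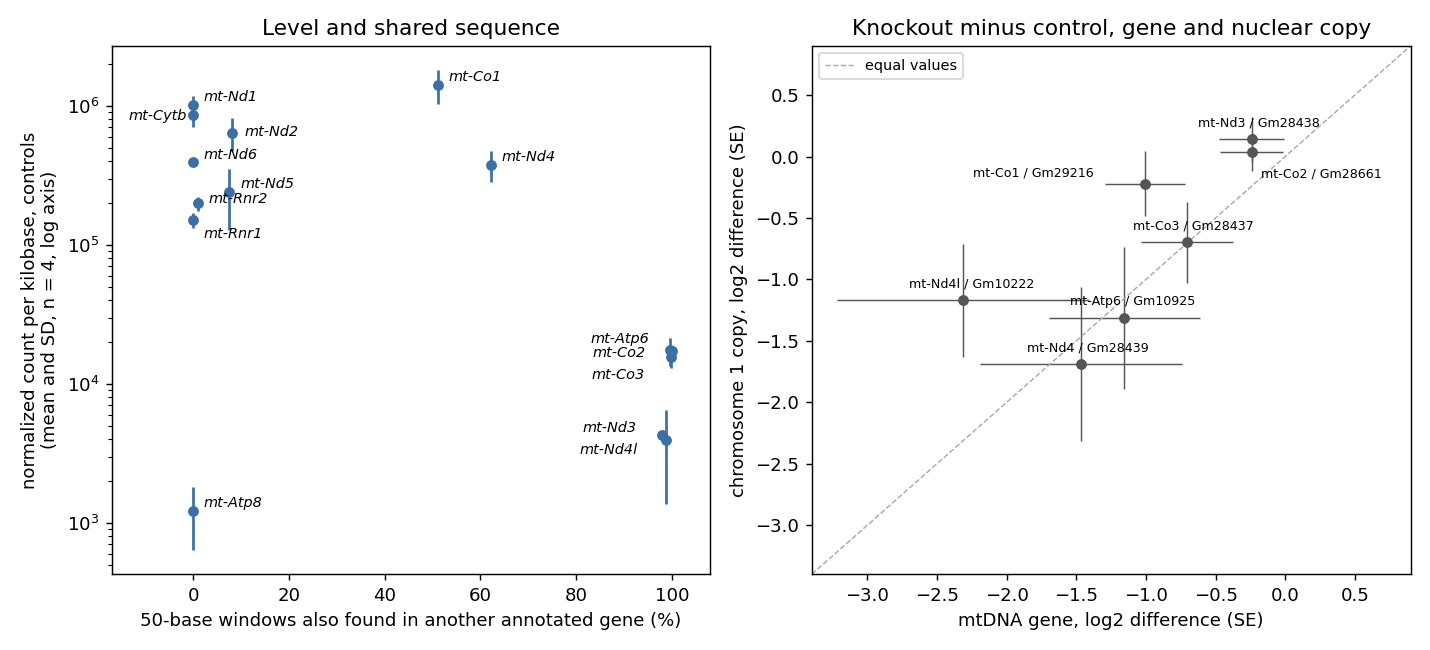
Left, control level per kilobase (mean and SD, n = 4, log axis) of the 15 RNAs of mitochondrial DNA against the share of their 50-base windows found in another annotated gene. The 5 genes with 98.0% or more lie at 17504 or less, and mt-Atp8, with 0% at this window length and no annotated copy, lies lowest. Right, knockout minus control on the log2 scale (SE) for 7 genes and their copies on chromosome 1, with the line of equal values; mt-Nd4l and mt-Co1 lie farthest from it.

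The copies also had counts in the deposited values. Where gene and copy have the same bases, a read cannot be assigned to either by its sequence. These counts and their differences therefore need not come from RNA of chromosome 1. Gm28661, the copy of mt-Co2, was measured at 14577, 13256, 13186 and 12933 in the controls and 17435, 12087, 16701 and 10305 in the knockouts. Its level was 1.07 to 1.62 times that of mt-Co2 in the same library. The copy of mt-Co3 had 0.943 to 0.997 times the count of its gene, that of mt-Atp6 1.08 to 1.33 times, and that of mt-Nd3 2.75 to 5.02 times. The copies of mt-Co1 and mt-Nd4, which hold only a part of those genes, had at most 0.00661 and 0.0110 times. Knockout minus control, Gm28437 differed by -0.70 and mt-Co3 by -0.71 on the log2 scale, and Gm10925 by -1.31 and mt-Atp6 by -1.16. The copies of mt-Co2 and mt-Nd3 had estimates of 0.03 and 0.14 against -0.24 and -0.24 for the genes. Gm10222, the copy of mt-Nd4l, differed by -1.17 against -2.31, and Gm29216 by -0.22 against -1.01 for mt-Co1. With each copy's reads added to its gene, mt-Nd3 turned to 0.06 and mt-Nd4l moved to -1.52.

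The mRNAs of mitochondrial DNA took 6.15% to 10.5% of all reads in the controls and 2.30% to 7.09% in the knockouts, with means of 8.34% ± 2.00 and 4.60% ± 2.28 (SD, n = 4 each). Knockout replicates 6 and 8 lay lowest of all 8 libraries, control replicates 3 and 4 highest, and knockout replicates 5 and 7 close to control replicates 1 and 2, so that the groups overlapped. In bulk muscle, fewer cells or mitochondria with these RNAs cannot be told apart from less of the RNA in each. The genes mt-Co2, mt-Co3, mt-Atp6, mt-Nd3, mt-Nd4l and mt-Atp8 add little to this sum. On average each made up at most 0.21% of it in the controls and 0.335% in the knockouts. The share, and what is set against it below, thus rests on the other mRNAs. Of those, mt-Co1 and mt-Nd4 also have much sequence found in other genes. The ribosomal RNAs of mitochondrial DNA took 0.632% ± 0.0557 of reads in controls and 0.678% ± 0.0981 in knockouts, with overlap. The reads of the 13 mRNAs per read of the 2 ribosomal RNAs were 10.9, 11.0, 16.9 and 13.8 in the controls and 10.6, 4.79, 7.28 and 3.94 in the knockouts. This ratio was lower in all knockouts than in every control, though knockout replicate 5 lay next to control replicate 1. The sources used here do not say how much ribosomal RNA was removed before sequencing, so the ratio holds for what remained.

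**Figure D2:**
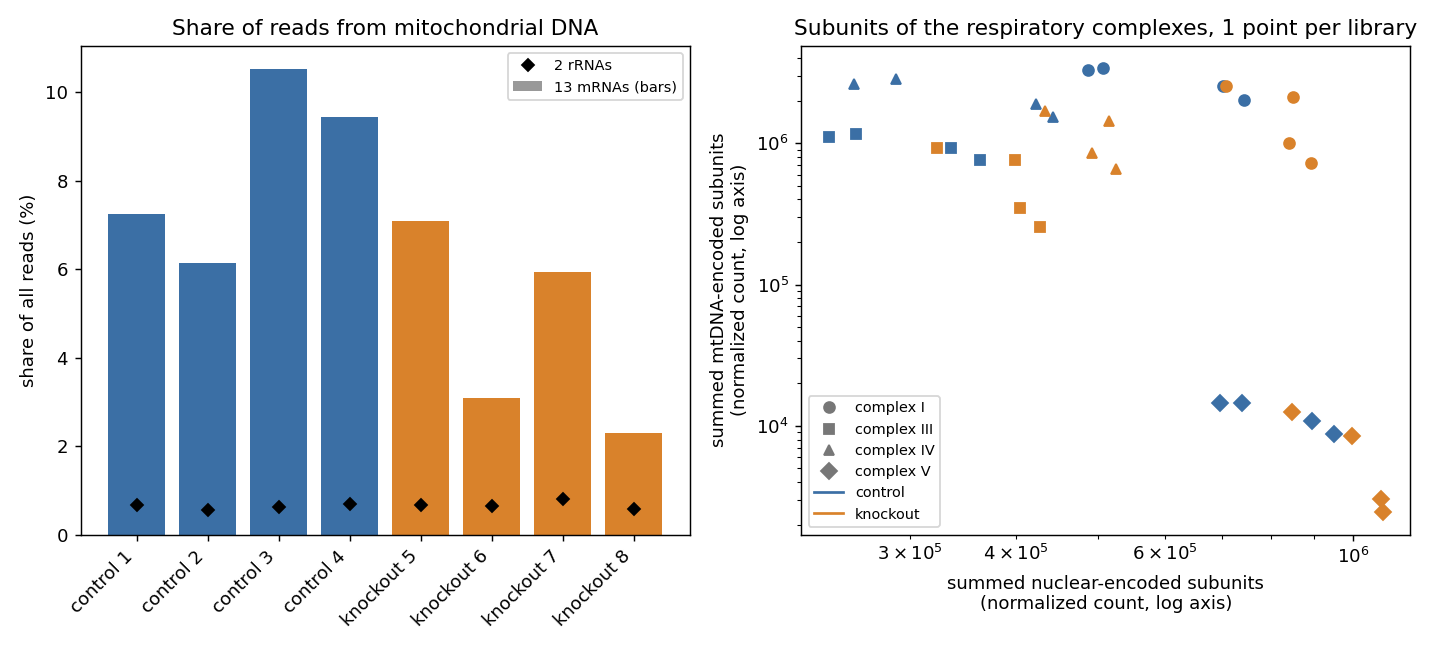
Left, share of all reads (%) from the 13 mRNAs (bars) and from the 2 ribosomal RNAs (diamonds) of mitochondrial DNA in each library. Knockout replicates 6 and 8 have the lowest mRNA bars, 3.09% and 2.30%, while the diamonds lie between 0.559% and 0.815%. Right, summed normalized counts of the mitochondrial-encoded against the nuclear-encoded subunits of complexes I, III, IV and V, with log axes and 1 point per library; in each complex, knockout replicates 6 and 8 lie lowest in height, and controls 3 and 4 farthest left.

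Both ribosomal RNAs, which form the core of the mitochondrial ribosome, had estimates close to 0. The small one, mt-Rnr1 (chrM:70-1024), was measured at 166896, 127655, 131919 and 148190 in the controls and 167522, 128463, 188329 and 116679 in the knockouts. The large one, mt-Rnr2 (chrM:1094-2675), was at 325906, 267021, 306005 and 358993 in the controls and 319952, 332063, 403189 and 298443 in the knockouts. Knockout replicate 7 was highest for both, and the groups overlapped. The differences were 0.05 ± 0.16 (SE) and 0.10 ± 0.13 on the log2 scale (limma, adjusted p = 0.871 and 0.635). Both estimates were smaller than their standard errors.

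All 13 mRNAs had lower estimates in the knockouts, with a median log2 difference of -1.01, and 0 passed the threshold by limma. At an unadjusted p under 0.05, 7 of 13 were lower, against 13.3% of all genes tested. Estimates below 0 made up 49.7% and those above 0 50.3% of all genes, whose median difference was 0.003. The groups did not overlap for 1 of the 13, mt-Nd5, against 7.06% of all genes with all knockouts lower. Knockout replicates 6 and 8 were below every control for 13 of 13 mRNAs, knockout replicate 7 for 7 and knockout replicate 5 for 1, mt-Nd5. Control replicates 3 and 4 were the highest controls for 10 of 13. Without knockout replicates 6 and 8 the median was -0.20 and 10 of 13 estimates were lower, and without control replicates 3 and 4 it was -0.74 with 13 lower.

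Complex I, which passes electrons from NADH into the chain, takes 7 subunits from mitochondrial DNA. The largest of these genes, mt-Nd5 (chrM:11742-13565), was measured at 292727, 237208, 646234 and 579760 in the controls and 234511, 128944, 214006 and 95056 in the knockouts. Every knockout was below every control, but knockout replicate 5 only narrowly below control replicate 2, and control replicates 3 and 4 stood well above the rest. The log2 difference was -1.35 ± 0.39 (SE; limma, adjusted p = 0.0853). Next to the ribosomal RNAs, mt-Nd1 (chrM:2751-3707) was at 942347, 797540, 1070390 and 1110360 in the controls and 965421, 442340, 860013 and 326290 in the knockouts. Knockout replicates 5 and 7 lay within the control range and replicates 6 and 8 below it, with a difference of -0.72 ± 0.30 (limma, adjusted p = 0.158). For mt-Nd2 (chrM:3914-4951) the controls were at 595895, 453077, 830948 and 792855 and the knockouts at 579038, 175510, 447366 and 127646. Knockout replicate 5 lay among the controls, replicate 7 just under control replicate 2, and replicates 6 and 8 far below. The difference was -1.23 ± 0.49 (limma, adjusted p = 0.16).

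The transcript of mt-Nd4 (chrM:10167-11544) was widely spread in the knockouts, with 501955, 344823, 638045 and 592230 in the controls and 550162, 94268, 352630 and 61738 in the knockouts. Knockout replicate 5 was above control replicate 1, while replicates 6 and 8 were far below all others. The difference was -1.46 ± 0.73 (SE; limma, adjusted p = 0.245). Its neighbour mt-Nd4l (chrM:9877-10173) was at 668, 379.8, 1962 and 1689.7 in the controls and 623, 78.7, 379 and 72 in the knockouts. The controls themselves differed several-fold, and knockout replicate 7 was almost level with control replicate 2. The difference of -2.31 ± 0.90 (limma, adjusted p = 0.161) was -1.52 with the reads of the copy on chromosome 1 added, and -1.39 without control replicates 3 and 4. The short mt-Nd3 (chrM:9459-9806) differed by -0.24 ± 0.23 (limma, adjusted p = 0.525), with knockout replicates 5 and 7 above all controls and 6 and 8 below.

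Alone on the minus strand, mt-Nd6 (chrM:13552-14070) was measured at 216483, 196789, 206831 and 195606 in the controls and 208559, 158387, 231523 and 112151 in the knockouts. The 4 controls were close together, knockout replicate 7 was highest of all and replicate 8 lowest. The sources used here do not say whether the counting used strand, so RNA of the plus strand may be among these reads. The log2 difference was -0.25 ± 0.19 (SE; limma, adjusted p = 0.398), nearer to 0 than the median of the 13. In percent of the reads of the 13 mRNAs, mt-Nd6 made up 4.03, 4.53, 2.79 and 2.80 in the controls and 4.04, 7.19, 5.38 and 6.85 in the knockouts. Its part was thus highest in knockout replicates 6 and 8, the libraries with the smallest sum, and lowest in control replicates 3 and 4, the libraries with the largest.

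Complex IV, cytochrome c oxidase, hands electrons to oxygen and takes 3 subunits from mitochondrial DNA. The catalytic subunit mt-Co1 (chrM:5328-6872) was measured at 1857200, 1519110, 2827310 and 2576710 in the controls and 1651790, 837946, 1408670 and 646100 in the knockouts. Knockout replicate 5 lay above control replicate 2, and the other 3 knockouts below all controls. The log2 difference was -1.01 ± 0.29 (SE; limma, adjusted p = 0.081). Without control replicate 2, mt-Co1 and mt-Nd5 passed the threshold, at -1.17 and -1.60 (limma, adjusted p = 0.0347 and 0.0352). In that setting 13.1% of all genes passed, 6.54% of all genes as lower, so that 2 of 13 mRNAs is close to the share over all genes. Over all alternatives their adjusted p was 0.0347 to 0.719 and 0.0352 to 0.702. The subunits mt-Co2 (chrM:7013-7696) and mt-Co3 (chrM:8607-9390) differed by -0.24 ± 0.22 and -0.71 ± 0.33 (limma, adjusted p = 0.504 and 0.203). For mt-Co2, knockout replicates 5 and 7 were above all controls, and for mt-Co3 within them.

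Cytochrome b of complex III, mt-Cytb (chrM:14145-15288), was measured at 931501, 761877, 1156390 and 1100480 in the controls and 925324, 350121, 755985 and 253178 in the knockouts. Knockout replicate 5 lay next to control replicate 1, replicate 7 just below control replicate 2, and replicates 6 and 8 far below. On the log2 scale it differed by -0.97 ± 0.38 (SE; limma, adjusted p = 0.142). Of the membrane part of complex V, mt-Atp6 (chrM:7927-8607) differed by -1.16 ± 0.54 (limma, adjusted p = 0.221), with knockout replicate 5 within the controls. The smallest gene, mt-Atp8 (chrM:7766-7969), was at 169.9, 127, 374 and 331 in the controls and 160, 20.6, 89.6 and 23.2 in the knockouts. Its difference was -2.12 ± 0.64 (limma, adjusted p = 0.0868), over 1511 reads in all 8 libraries.

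**Figure D3:**
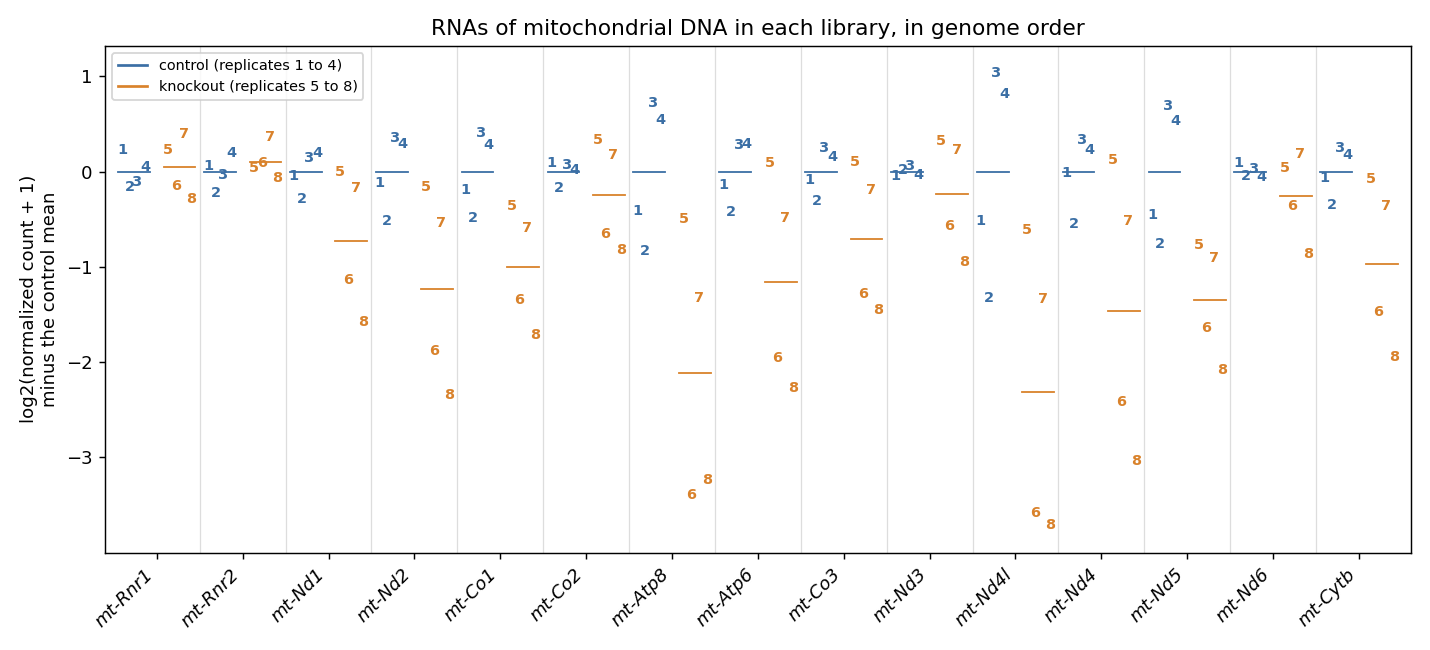
Level of each RNA of mitochondrial DNA in each library, as log2(normalized count + 1) minus the mean of the 4 controls, in genome order; digits are replicate numbers and bars are group means. Knockout replicates 6 and 8 lie below every control for the 13 mRNAs and among them for mt-Rnr2.

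Within the sum of the 13 mRNAs, the largest part in reads, with no division by length, was that of mt-Co1, with 36.1% ± 1.65 in controls and 35.6% ± 3.74 in knockouts (SD, n = 4 each). The part of mt-Nd1 was 14.4% to 18.4% in the controls and 18.7% to 20.1% in the knockouts, without overlap. The parts of mt-Co2, mt-Co3 and mt-Nd3 were also higher in every knockout than in every control, at log2 ratios of 0.74, 0.27 and 0.74. Those of mt-Nd4l and mt-Atp8 had log2 ratios of -1.34 and -1.17, with overlap between the groups. Of these, mt-Co2, mt-Co3, mt-Nd3 and mt-Nd4l are the genes whose sequence the copies cover nearly whole, so their parts are uncertain. mt-Nd4 made up 8.59% ± 0.576 in controls and 6.73% ± 3.29 in knockouts. In the knockouts its part was 10.7%, 4.28%, 8.19% and 3.77% in replicates 5 to 8, so that replicates 6 and 8 were low here as well. A part of a sum shows unequal differences only, and not that any mRNA stayed the same.

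The nuclear-encoded partners had estimates of the opposite sign. Of the nuclear genes of complex I, 34 of 35 had higher estimates in the knockouts, of complex III 8 of 9, of complex IV 13 of 13 and of complex V 14 of 16, with medians of 0.47, 0.53, 0.53 and 0.49 on the log2 scale. By limma 0 were called, against 32, 7, 10 and 11 higher at an unadjusted p under 0.05, a level that 13.6% of all genes reached in that direction. Over all genes, longer transcripts tended to have lower estimates in the knockouts, as given below. The part of transcript length in the estimates of these subunits, and in the ratios that follow, was not tested. Summed reads of mitochondrial-encoded over nuclear-encoded subunits of complex I were 3.64, 2.73, 6.69 and 6.73 in the controls and 3.59, 1.19, 2.48 and 0.811 in the knockouts. Knockout replicates 6, 7 and 8 were below all controls and knockout replicate 5 was not. For complex IV the ratios were 4.45, 3.47, 9.86 and 10.1 in the controls and 3.88, 1.73, 2.78 and 1.25 in the knockouts, with the same libraries on each side. The mean log2 ratio differed, knockouts minus controls, by -1.42, -1.35, -1.51 and -1.46 for complexes I, III, IV and V. The groups overlapped for each. For complex V the ratio was only 0.0155 ± 0.0057 in controls and 0.0071 ± 0.0059 in knockouts (SD, n = 4 each). Its mitochondrial sum held only mt-Atp6, whose sequence a copy covers nearly whole, and mt-Atp8, so this ratio is uncertain. In complex IV nearly all of the mitochondrial sum was mt-Co1, with control means of 2195080 for mt-Co1 and 2219090 for the sum. Nuclear-encoded sums were lowest in control replicates 3 and 4 for all 4 complexes. Without these 2 libraries the differences in mean log2 ratio were -0.88, -0.90, -0.84 and -0.99 in the same order. Without knockout replicates 6 and 8 they were -0.62 for complex I, -0.50 for complex III, -0.93 for complex IV and -0.39 for complex V.

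The nuclear factors had estimates of small size, from -0.35 to 0.47. Of the 16 tested, 10 estimates were lower and 6 higher in the knockouts, at a median log2 difference of -0.11, and 0 were called by limma. At an unadjusted p under 0.05, 2 were lower, Tfb2m and Pnpt1, against 13.3% of all genes tested, and 0 were higher. The groups did not overlap for 3 of 16, all lower, against 7.06% of all genes that were lower without overlap and 6.06% that were higher. Longer transcripts tended to have lower estimates in the knockouts (Spearman's rho -0.41 across 15549 genes, which are not independent replicates). With a length and GC trend taken out of each library, the median of the factors was -0.03. It was -0.05 without control replicates 3 and 4 and -0.12 without knockout replicates 6 and 8.

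Among the transcription factors, Tfb2m (chr1:179528055-179546267), which opens the promoters for the polymerase, was measured at 3102, 3074, 3752 and 3802 in the controls and 2689, 3072, 2605 and 2427 in the knockouts. All knockouts were below all controls, with knockout replicate 6 just under control replicate 2. The difference was -0.35 ± 0.12 on the log2 scale (SE; limma, adjusted p = 0.098). Of its 50-base windows, 39.6% are also in the gene Gm1818, so part of its reads may be uncertain. The polymerase itself, Polrmt (chr10:79736123-79746581), was at 2176, 2025, 1859.8 and 2119 in the controls and 2038, 2084, 1757 and 1923 in the knockouts. These values overlapped, with a difference of -0.07 ± 0.11 (limma, adjusted p = 0.705).

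Tfam (chr10:71225464-71238280), which packs mitochondrial DNA and bends its promoters, was measured at 4126, 4720.4, 4478 and 4116 in the controls and 4110.1, 5359, 4328 and 5483 in the knockouts. Knockout replicates 6 and 8 were above all controls, replicate 5 just below them and replicate 7 among them. The log2 difference was 0.14 ± 0.12 (SE; limma, adjusted p = 0.479), and -0.05 without knockout replicates 6 and 8. The elongation factor Tefm (chr11:80136678-80142175) was at 1262, 1452, 1297 and 1065 in the controls and 1342, 1479, 1439 and 1489 in the knockouts. Its difference was 0.19 ± 0.12 (limma, adjusted p = 0.319), with 1 control, replicate 2, inside the knockout range. Tfb1m, which methylates the small ribosomal RNA, differed by -0.12 ± 0.13 (limma, adjusted p = 0.577), with 369 to 449 in all 8 libraries.

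Of the replication proteins, the accessory subunit Polg2 (chr11:106768253-106779537) was measured at 225, 293, 153 and 151 in the controls and 188, 384, 259.5 and 303 in the knockouts. Control replicates 3 and 4 were lowest and knockout replicate 6 highest, and the groups overlapped widely. On the log2 scale the groups differed by 0.47 ± 0.26 (SE; limma, adjusted p = 0.254). For Polg2 the difference was 0.10 without control replicates 3 and 4 and 0.16 without knockout replicates 6 and 8. The catalytic subunit Polg (chr7:79446231-79466362) differed by -0.26 ± 0.13 (limma, adjusted p = 0.219), and 8.57% of its exon bases overlap Fanci on the other strand. The binding protein Ssbp1 (chr6:40471352-40484700) was at 1519.6, 1742, 1266 and 1456 in the controls and 1736, 1648, 1733 and 1738 in the knockouts. It differed by 0.20 ± 0.12 (limma, adjusted p = 0.268), and control replicate 2 was the highest of all.

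Another set of factors cuts and degrades the RNAs. Pnpt1 (chr11:29130744-29161828), the polynucleotide phosphorylase of the mitochondrial degradosome, was measured at 1091, 1134, 1382 and 1227 in the controls and 1072, 996, 1085 and 846 in the knockouts. All knockouts were below all controls, knockout replicate 7 only just, and replicate 8 was lowest. The log2 difference was -0.27 ± 0.13 (SE; limma, adjusted p = 0.18). Its partner helicase Supv3l1 (chr10:62429209-62449738) differed by -0.11 ± 0.13 (limma, adjusted p = 0.597), with overlap. Elac2 (chr11:64979038-65002069), which cuts the 3′ ends of the tRNAs, was at 1869, 1926, 2147 and 2325 in the controls and 1765, 1838, 1802 and 1691 in the knockouts. It too had every knockout below every control, at a difference of -0.22 ± 0.11 (limma, adjusted p = 0.214). Rexo2 (chr9:48468512-48480623), which degrades the shortest RNA fragments, was at 4634, 4469, 3359.8 and 3485 in the controls and 4780, 4988, 4424 and 4429 in the knockouts. Control replicates 3 and 4 were lowest, and the difference was 0.24 ± 0.12 (limma, adjusted p = 0.235).

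The proteins that bind and stabilise the RNAs gave small estimates. Lrpprc (chr17:84705247-84790789), which holds mitochondrial mRNAs in a stable, translatable state, was measured at 8070.4, 9235, 9955 and 9272 in the controls and 7844, 12055, 9215 and 9641 in the knockouts. Knockout replicate 6 was highest and replicate 5 lowest, with a difference of 0.07 ± 0.13 (SE; limma, adjusted p = 0.752). Its partner Slirp had 9 reads in all 8 libraries, at or below 2.44 normalized counts, and was not tested. Of the exon bases of Slirp, 97.8% overlap Snw1 on the opposite strand, and the sources used here do not say whether the counting used strand. The poly(A) polymerase Mtpap differed by -0.11 ± 0.11 (limma, adjusted p = 0.535), and 30.6% of its windows are also in Gm26865. Fastkd2, which binds the large ribosomal RNA, differed by -0.14 ± 0.12 (limma, adjusted p = 0.476). Fastkd1 (chr2:69686815-69713516), of the same family, was at 1013, 1069, 1314 and 1311 in the controls and 1051, 975, 966 and 902 in the knockouts. Control replicates 3 and 4 were highest, knockout replicate 5 lay above control replicate 1, and the difference was -0.27 ± 0.12 (limma, adjusted p = 0.189).

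**Figure D4:**
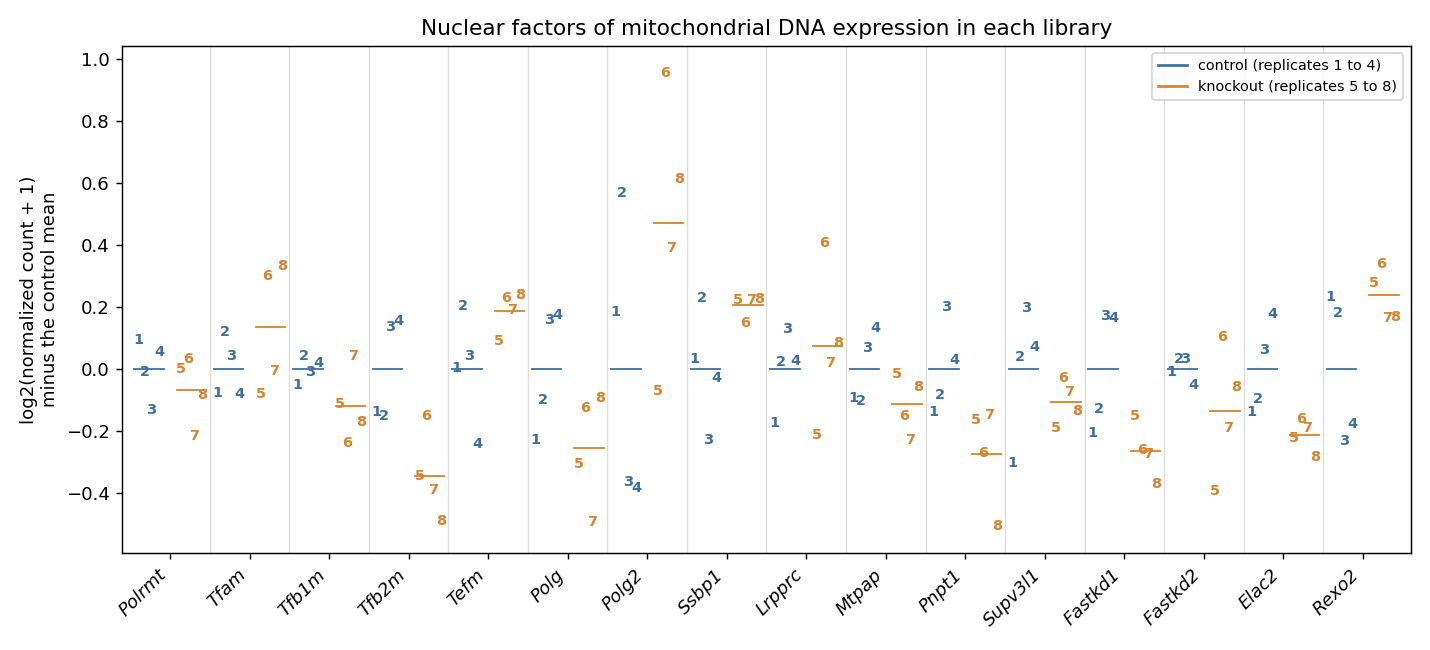
Level of each of the 16 tested nuclear factors in each library, as log2(normalized count + 1) minus the mean of the 4 controls; digits are replicate numbers and bars are group means. The scale is narrower than that of the mRNAs, and Tfb2m, Pnpt1 and Elac2 are the 3 factors with all knockouts below all controls.

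Each of the 16 factors was then set against the share of reads from the 13 mRNAs, as log2 of the percentage, over the 8 libraries, and so was every other tested gene outside mitochondrial DNA, 15639 in all. At an unadjusted exact permutation p under 0.05, 7 of 16 factors were related to the share, 4 with positive and 3 with negative signs, against 28.3% of all genes. Adjusted over all genes, 1 factor passed by Pearson's r, Pnpt1, against 1.66% of all genes. By Spearman's rho 2 of 16 passed, Polg2 and Tefm, against 10.6% of all genes, which is close to their share. The median size of r was 0.66 for the factors and 0.52 for all genes. The 8 points share their groups, since knockouts are mostly at the low end, and the 2 farthest from the median share were knockout replicates 6 and 8.

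Pnpt1 was lowest in the libraries with the lowest shares and highest in control replicates 3 and 4, with r = 0.93 (exact permutation p = 0.000645, adjusted p = 0.0452) and rho = 0.88 (exact permutation p = 0.00724, adjusted p = 0.0529). Without the 2 farthest libraries r was 0.87, and over deviations from the group means it was 0.86. Fastkd1 had r = 0.82 and rho = 0.88 (exact permutation p = 0.0238 and 0.00724, adjusted p = 0.145 and 0.0529). Its r was 0.92 without the 2 farthest and 0.65 over deviations from the group means. Both thus kept a positive sign in each way of computing it, as did Tfb2m, Elac2, Mtpap and Supv3l1.

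Tfb2m had r = 0.69 and rho = 0.86 (exact permutation p = 0.0558 and 0.0107, adjusted p = 0.184 and 0.0667). Without the 2 farthest libraries r was 0.88, but within groups, over deviations from their means, it was 0.34. Elac2 had r = 0.72 and rho = 0.76 (exact permutation p = 0.0453 and 0.0368, adjusted p = 0.171 and 0.138), with 0.81 without the 2 farthest and 0.42 within groups. Their r was smaller within the groups than over all 8 libraries. Tfb1m had r = 0.74 and rho = 0.36 (exact permutation p = 0.0391 and 0.389, adjusted p = 0.165 and 0.572), with -0.12 without the 2 farthest and 0.55 within groups, so that its sign rested on those libraries.

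With the opposite sign, Polg2 had r = -0.85 and rho = -0.90 (exact permutation p = 0.00623 and 0.00456, adjusted p = 0.0901 and 0.0431). Its r was -0.93 without the 2 farthest libraries and -0.79 within groups. Tfam had r = -0.87 and rho = -0.64 (exact permutation p = 0.0122 and 0.0962, adjusted p = 0.115 and 0.247). For Tfam r was -0.19 without knockout replicates 6 and 8, and -0.88 within groups with those libraries included. Tefm had r = -0.72 and rho = -0.90 (exact permutation p = 0.045 and 0.00456, adjusted p = 0.171 and 0.0431), with -0.71 without these 2 libraries and -0.51 within groups. The polymerase Polrmt had r = 0.06 (exact permutation p = 0.889, adjusted p = 0.939) and rho = 0.24. The other 7 factors had r between -0.63 and 0.52, and none of them had an unadjusted p under 0.05.

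**Figure D5:**
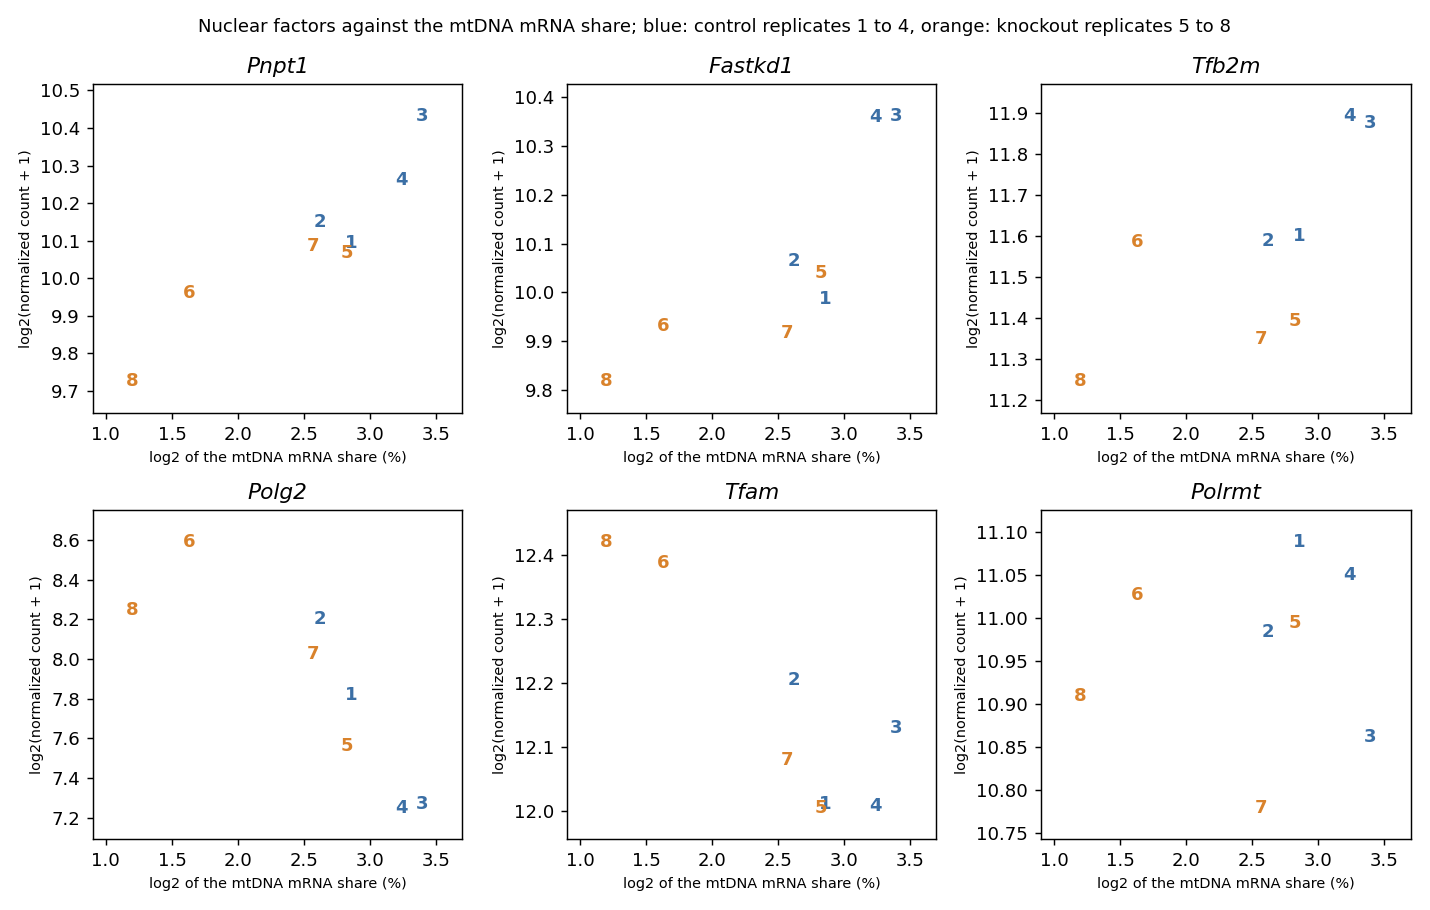
Level of 6 nuclear factors, as log2(normalized count + 1), against log2 of the share of reads (%) from the 13 mRNAs, 1 point per library; digits are replicate numbers, blue for controls and orange for knockouts. Pnpt1 and Fastkd1 are higher where the share is higher, Polg2 is lower there, Tfam is highest in knockout replicates 6 and 8, and Polrmt has r = 0.06.

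Other genes of the pathway, by list, had no call by limma either. Of 20 further genes that maintain mitochondrial DNA, 10 were estimated lower and 10 higher, and 2 in each direction had an unadjusted p under 0.05, a level that 13.3% of all genes reached as lower and 13.6% as higher. The smallest p in this list were those of Rrm2b, which supplies nucleotides, at a difference of -0.62 ± 0.18 (SE), and of the ligase Lig3 at -0.86 ± 0.33 (limma, adjusted p = 0.081 and 0.134). For 19 tested genes of transcription and RNA processing, 7 were lower and 12 higher, with 3 in each direction at an unadjusted p under 0.05, close to these shares of all genes. Ptcd3, which binds the mitochondrial ribosome, differed by -0.35 ± 0.12 and Mterf1b, of a transcription termination factor family with near copies, by 1.22 ± 0.36 (limma, adjusted p = 0.0984 and 0.081). Among 16 regulators of nuclear mitochondrial genes, 12 had lower estimates, against 49.7% of all genes, and 4 of the 12 were at an unadjusted p under 0.05, while 1 was higher at that level. Prkaa2, a catalytic subunit of the energy sensor AMPK, differed by -0.59 ± 0.18 (limma, adjusted p = 0.081). It was 15548, 14878, 24168 and 27039 in the controls and 12654, 14041, 13610.1 and 12163 in the knockouts, with all knockouts lower and control replicates 3 and 4 highest.

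Markers of other cell types and fibres moved with some of these libraries. Of 10 heart markers, all 9 tested had higher estimates in the knockouts, and their summed level was 2331 to 10517 in controls and 3838 to 17106 in knockouts, highest in knockout replicate 8. Most of that sum in the other 7 came from Myl2, which slow fibres also make. In replicate 8 Nppa and Myl7 were at 1648 and 1124, against 0 to 6.11 and 0 to 4.14 in the other 7. For 10 slow and oxidative fibre markers, 6 had higher estimates, with sums of 100867 to 278659 in controls and 99420 to 189995 in knockouts, and control replicate 3 was highest. All 9 macrophage markers had higher estimates, with sums of 8429 to 12415 in controls and 12566 to 19940 in knockouts, and so did all 6 fibro-adipogenic progenitor markers, with sums of 137637 to 174471 and 176200 to 218551. Estimates were also higher for 6 of 7 adipocyte, 4 of 4 brown adipocyte, 4 of 5 erythroid and 1 of 6 endothelial markers. Over all genes, 50.3% of estimates were higher. Cox7a1 was the highest of the brown adipocyte markers, and whether that list marks brown adipocytes in this muscle was not tested. By limma 0 of these markers were called. The part of other cells or fibres in the levels of the mitochondrial RNAs was not tested.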

How the data were processed

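RNA was measured in 8 white quadriceps libraries. Per the labels' protocols, a Norgen Biotek kit and a NEBNext Ultra II library kit were used. The submitters' processing notes name cutadapt, FastQC, STAR, HTSeq and DESeq2 with the build GRCm38; the sources used here give no versions, settings, annotation or strand. The values that the authors deposited are on a log2 scale. With the log2 undone and 1 subtracted, 100% of the values of 1 to 1000 reads lay within 0.1 of a whole multiple of 1 step per library (0.679 to 1.29), as reads divided by a size factor would. They give 55284004 to 109101263 reads per library. A gene at 0 allows up to 3 reads, a normalized count of 2.04 to 3.87, counting error only.

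Groups and replicate numbers come from the titles. Within groups, chi-square per gene of reads between libraries was 35.4 to 265, so each library counted as a sample. The 15657 genes whose normalized count averaged 10 or more entered limma 3.58.1 (R 4.3.3; trend and robust options) on log2(normalized count + 1), with Benjamini-Hochberg adjustment at 0.05. That scale understates the change of low genes. Correlations used all 40320 pairings in Python 3.11.15 (scipy 1.17.1, numpy 2.4.6, pandas 2.3.3; plots by matplotlib 3.10.9). Exons, overlaps and shared 50-base windows came from GENCODE transcripts on GRCm38, which need not be the annotation used for counting. Both procedures were tested on simulated data with independent libraries. Those data lack the split into pairs of libraries seen here, so they do not show how the procedures behave under it. The members, gene lists and alternatives were chosen with earlier results of these data known; the addition of the copies' reads was chosen after seeing the data. Named genes are all members, Acot2 and, among others, genes from the 2 of smallest p of each other list and the highest marker of a cell list; Nppa, Myl7 and the copies were chosen after their values were seen. The pseudocount, the filter, the scaling and the variance model were varied in turn, with voom, removal of a length and GC loess trend (span 0.5; 99.4% of tested genes have both), and libraries left out.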

Additional observations from a re-analysis of the deposited data

Results flagged for a closer look

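Of 68 groups of 4 libraries examined (the 31 tested members and shares in each group), 1 was flagged because a library lay far from the other 3. Ssbp1, the single-strand binding protein, was at 1648 in knockout replicate 6 and at 1733 to 1738 in the other 3 knockouts, so that the gap made up 0.943 of the group's range, above the critical value of Dixon's test. Chance flags about 1 in 20 such groups. The 3 other knockouts lay close together, and the value of replicate 6 lay within the control range of 1266 to 1742.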

How the results depend on the processing

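No paired analysis was possible because the replicate numbers of the controls (1 to 4) and of the knockouts (5 to 8) share none. The number of genes called over all genes was 1 as reported. It was 2 with no filter, with equal totals and without knockout replicates 6 and 8 together, 4 with the length and GC trend removed, 7 without trend and robust options and 1201 with sample quality weights, and 1 to 2048 without single libraries (1722 without control replicate 1, 2048 without control replicate 2). Of the 13 mRNAs 0 to 2 were called when single libraries were left out, and of the nuclear factors 0 under every alternative run. Without knockout replicates 6 and 8 together the log2 difference of the mitochondrial to nuclear ratio was -0.50 for complex III and -0.39 for complex V. In that setting estimates turned sign for mt-Nd3 (0.28), mt-Nd6 (0.11), mt-Co2 (0.25), Tfam (-0.0456) and Lrpprc (-0.10), which was -0.0388 to 0.168 without single libraries. Those of mt-Nd3 (0.0636 with the copy's reads added), Mtpap (0.0219 with the length and GC trend removed) and Supv3l1 (0.0242 without control replicates 3 and 4) turned too. mt-Rnr1 was -0.00437 with equal totals outside mitochondrial DNA and -0.0718 to 0.158 without single libraries. Of the correlations with the share, 3 of 16 factors passed with the share in percent and 2 by Spearman, against 10.9% and 10.6% of all genes. Signs turned without the 2 farthest libraries for Tfb1m (-0.12), Lrpprc (0.40) and Fastkd2 (0.33; 0.0476 by Spearman), and within groups for Polrmt (-0.27) and Polg (-0.26). For all of these the cause was not tested. Estimates kept their sign under 22 alternatives for 10 of 13 mRNAs and 12 of 16 factors. Other scalings shifted the median of all genes by at most 0.05. Slirp and most tRNAs had too few reads for the filter, and the cause was not tested.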

Other observations

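The tRNAs of mitochondrial DNA were hardly measured. Of 22 tRNA genes, 9 were at 0 in all 8 libraries and 3 passed the filter. mt-Tp, the tRNA for proline, was far above the others, at 4801, 4743, 7484 and 5791 in the controls and 4629.6, 2441, 5365 and 1998 in the knockouts, while the others reached 61.2 normalized counts at most. Knockout replicates 6 and 8 were lowest here too, as for the mRNAs, and the log2 difference was -0.76 ± 0.30 (SE; limma, adjusted p = 0.144). The sources used here do not say how short RNAs were treated before sequencing.

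Genes that modify mitochondrial RNAs or help translate them, all encoded in the nucleus, had 0 calls by limma. Of 22 tested genes that modify mitochondrial ribosomal RNAs and tRNAs, 14 had higher estimates, 6 of them at an unadjusted p under 0.05, and 8 lower, 3 of them at that level, which 13.6% of all genes reached as higher and 13.3% as lower. The methyltransferase Mrm2 was at 879, 926, 666 and 713 in the controls and 972, 1112, 1064 and 1149 in the knockouts, with all knockouts higher and control replicates 3 and 4 lowest (difference 0.44 ± 0.13; limma, adjusted p = 0.0824). Of 27 tested assembly and translation factors of the mitochondrial ribosome, 13 were estimated lower and 14 higher, with 0 lower and 4 higher at an unadjusted p under 0.05, the latter close to the share over all genes. The elongation factor Tsfm was at 2181, 2127, 1357 and 1403 in the controls and 2357, 2863, 2611 and 2904 in the knockouts. Again control replicates 3 and 4 stood below the rest, and the difference was 0.63 ± 0.16 (limma, adjusted p = 0.0796). The 22 mitochondrial aminoacyl-tRNA synthetases, which charge the tRNAs, were estimated lower for 12 and higher for 10, at a median of -0.02. Iars2, the enzyme for isoleucine, differed by -0.47 ± 0.13 (limma, adjusted p = 0.0796), with all knockouts lower.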
